A study of Mus musculus with 8 samples.

Results

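Early large pre-B cells (early LPre-B cells) carrying a prearranged heavy chain gene were compared with and without Upf1, over all genes with enough counts to test. The comparison takes 4 of the 8 RNA-seq libraries of the study: 2 from Ctrl mice and 2 from cKO mice. The other 4 libraries are small pre-B (sPre-B) cells of the same 2 genotypes. Ctrl mice were Upf1 Flox/Flox, Mb1 +/+ and Igh B1-8hi/+, and cKO mice were Upf1 Flox/Flox, Mb1 Cre/+ and Igh B1-8hi/+. Both groups therefore carried the floxed Upf1 alleles and 1 copy of B1-8hi, a heavy chain allele with a V segment already joined, beside 1 germline Igh allele. The Cre gene sits in the Mb1 locus (Cd79a) and is active from the earliest B-lineage cells, so that cKO cells had also lost 1 intact Cd79a allele. Loss of Upf1 and the Cre insertion cannot be told apart in this design. The cells were sorted from bone marrow of adult C57BL/6 mice of both sexes as lineage-negative B220+ sIgM- CD43+ CD2- cells of large size. Of 27179 genes listed, 21950 had at least 1 count in these 4 libraries and 17700 were tested.

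UPF1 is an RNA helicase at the centre of nonsense-mediated mRNA decay (NMD), the pathway that degrades transcripts on which a ribosome stops far upstream of the last exon junction or of the 3′ end. Besides aberrant mRNAs, its known substrates include many non-coding host transcripts of small nucleolar RNAs (snoRNAs), mRNAs with upstream open reading frames such as Atf4 and Ddit3, splicing factor mRNAs with poison exons, and mRNAs of the NMD factors themselves. Early LPre-B cells are the stage at which the V segment of the heavy chain is joined by the RAG recombinase, after which the pre-B cell receptor drives a burst of division.

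The sorted cells were checked against defining markers of their gate and stage. Cd2, which the gate excludes, stood at 4.97 to 6.15 CPM (counts scaled to a common library size, with TMM as the correction for library composition) in the 4 libraries against 135 to 178 CPM in the sPre-B libraries. The gate's positive markers were present at lower levels in cKO, Ptprc (B220) at 306 and 344 CPM in Ctrl and 215 and 238 CPM in cKO, and Spn (CD43) at 198 and 184 CPM in Ctrl and 120 and 137 CPM in cKO. Mki67, a marker of dividing cells, was at 4459 and 4926 CPM in Ctrl and at 2915 and 3057 CPM in cKO, against 359 to 748 CPM in sPre-B cells. The libraries held 83644947 to 160426338 counts, and the log-scale correlation was 0.9943 between the Ctrl libraries, 0.9957 between the cKO libraries and 0.9767 to 0.9805 across genotypes. Ctrl replicate 2 was the only male library by Xist (3.9 CPM against 3718 to 3762 CPM in the other 3 libraries), and the main counts were also made without it.

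Upf1 itself (Entrez 19704, mm10 chromosome 8, bases 70331493 to 70353423) was not lower. Its level was 237 and 213 CPM in the Ctrl libraries and 244 and 258 CPM in the cKO libraries, a Log2FC (cKO against Ctrl) of 0.16 with a standard error (SE) of 0.10 and an adj. P of 0.251 by edgeR's quasi-likelihood test with Benjamini-Hochberg adjustment, from which every adj. P below comes. The loxP sites flank exons 4 to 6, which hold 511 of the 4618 bases of the 24-exon transcript (11.1%), and a count over the whole gene does not show whether those exons were read. The gene-level count is thus no check of the deletion. Cd79a (chromosome 7, bases 24897497 to 24901858), the signalling chain of the pre-B cell receptor into which Cre was inserted, was at 640 and 543 CPM in Ctrl and 188 and 160 CPM in cKO. It fell by 1.77 on the Log2FC scale (SE 0.16, adj. P 0.000157), or 3.4-fold. The direction is the one that the labels give, but other genes of this receptor fell as well. How much of the fall comes from the insertion was not tested.

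The cKO cells differed from Ctrl cells by small amounts over a large share of the transcriptome and by large ones in a smaller set of transcripts. At an adj. P under 0.05, 2564 genes were higher in cKO early LPre-B cells (14.5% of those tested) and 2983 were lower (16.9%). The median size of the change was 0.79 Log2FC among the genes that rose and 0.62 among those that fell, and 1658 (64.7%) and 2187 (73.3%) of them changed by less than 1. With a Log2FC of at least 2 as well, 218 genes (1.23%) were higher and 374 (2.11%) were lower. The 2 libraries of one genotype lay wholly on one side of the other 2 for all 2564 genes that rose and for 2982 of the 2983 that fell. The calls were made on these same libraries, so this separation follows in large part from the choice of genes. Its share over all genes tested was not counted. Leaving out cKO replicate 1 brought the counts to 1634 higher and 1289 lower, leaving out cKO replicate 2 to 1658 and 1853, and leaving out Ctrl replicate 1 took the number lower to 1860. In bulk RNA, fewer cells of a kind and less RNA per cell cannot be told apart, and this holds for each gene group below.

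**Figure D1:**
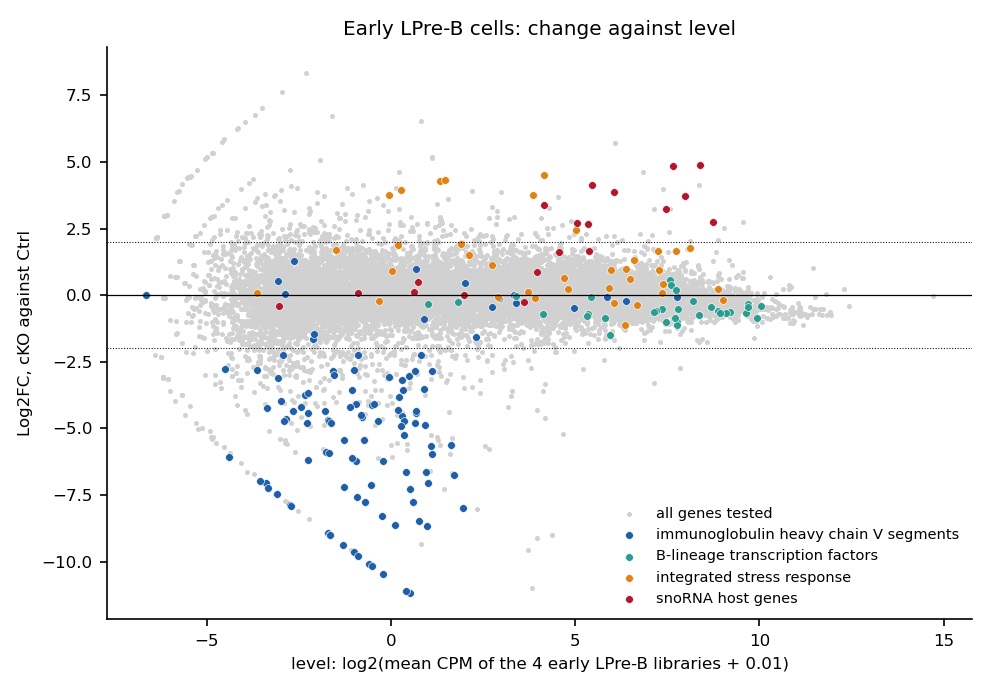
Each point is a gene tested in early LPre-B cells, placed by its level (log2 of the mean CPM of the 4 libraries plus 0.01, x axis) and its Log2FC of cKO against Ctrl (y axis). Coloured points mark 4 gene lists and dotted lines a Log2FC of 2 either way: snoRNA host genes and several integrated stress response genes stand above the upper line, most immunoglobulin heavy chain V segments below the lower one, and B-lineage transcription factors just under zero at high levels. The outermost streaks on the left are genes with no counts in one group, whose fitted value depends on the prior count.

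Large changes in either direction held a larger share of long non-coding RNAs than all genes tested. Of genes with an annotated class, long non-coding RNAs made up 10.7% of those higher and 8.06% of those lower by a Log2FC of 2 or more, 3.9% of all genes that were higher, 4.04% of all that were lower and 5.86% of all tested. Pseudogenes made up 5.37% of the genes higher by 2 or more and 2.5% of all tested. The genes that fell by 2 or more were made up of immunoglobulin and T cell receptor segments to 27.8%, against 1.55% of all genes tested. Most genes with a large rise were barely expressed in Ctrl cells, with a median level of 0.257 CPM against 16.1 CPM for all genes that rose and 12.3 CPM for all tested. These shares are descriptions, and no test was made of them.

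The host transcripts of snoRNAs had the highest median of the gene lists. These non-coding RNAs carry snoRNAs in their introns, and their spliced exons, which have only short reading frames, are textbook NMD substrates. Of 19 hosts tested, 13 were higher and none was lower, with a median Log2FC of 2.67 against -0.06 over all genes, and 13 were higher under each of the alternative settings and with each early LPre-B library left out. Zfas1 (chromosome 2, bases 167062934 to 167065862) was at 22.7 and 21.6 CPM in Ctrl and 573 and 732 CPM in cKO, or 22.2 ± 0.842 against 652 ± 113 CPM (SD, n = 2 per group), a 29.4-fold rise (Log2FC 4.88, SE 0.15, adj. P 1.94e-06 in edgeR). Snhg12 (chromosome 4, bases 132308678 to 132311024) went from 14.1 and 12.7 CPM to 389 and 386 CPM (Log2FC 4.85, SE 0.10, adj. P 1.74e-07, the smallest of all genes tested). Every cKO library stood far above every Ctrl library for both, and the rule for naming the largest changes asked for no overlap. Snhg15 rose from 5.36 and 4 CPM to 80.5 and 86.2 CPM, and Snhg16 from 8.18 and 8.72 CPM to 112 and 138 CPM.

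The more abundant hosts moved by smaller factors. Snhg1, host of a long series of snoRNAs, was at 35.4 and 35.5 CPM in Ctrl and at 428 and 512 CPM in cKO (Log2FC 3.73, SE 0.14, adj. P 3.42e-06). Snhg5 stood at 33.6 and 33.5 CPM in Ctrl and 318 and 321 CPM in cKO, 9.53-fold higher with replicates close together in both groups. Gas5, the growth-arrest transcript long used as a readout of NMD (chromosome 1, bases 161034601 to 161038539), was at 108 and 112 CPM in Ctrl and 762 and 727 CPM in cKO (Log2FC 2.76, SE 0.12, adj. P 1.08e-05). The non-coding RNAs 2410006H16Rik and 1110038B12Rik, which were not on the host list, rose from 38.1 and 32.4 to 596 and 653 CPM and from 22.9 and 16.5 to 307 and 322 CPM. Per kilobase of exon, 2410006H16Rik reached 1290 and 1413 CPM in cKO cells, Zfas1 195 and 250 CPM, and Snhg5 184 and 186 CPM. The 6 hosts that did not pass the test were Snhg3, Snhg9, Snhg10, Snhg11, Snhg18 and Snhg20, with a Log2FC from -0.40 (Snhg18) to 0.50 (Snhg10). The counting is described as unstranded, so reads from a host and an overlapping antisense gene cannot be told apart.

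**Figure D2:**
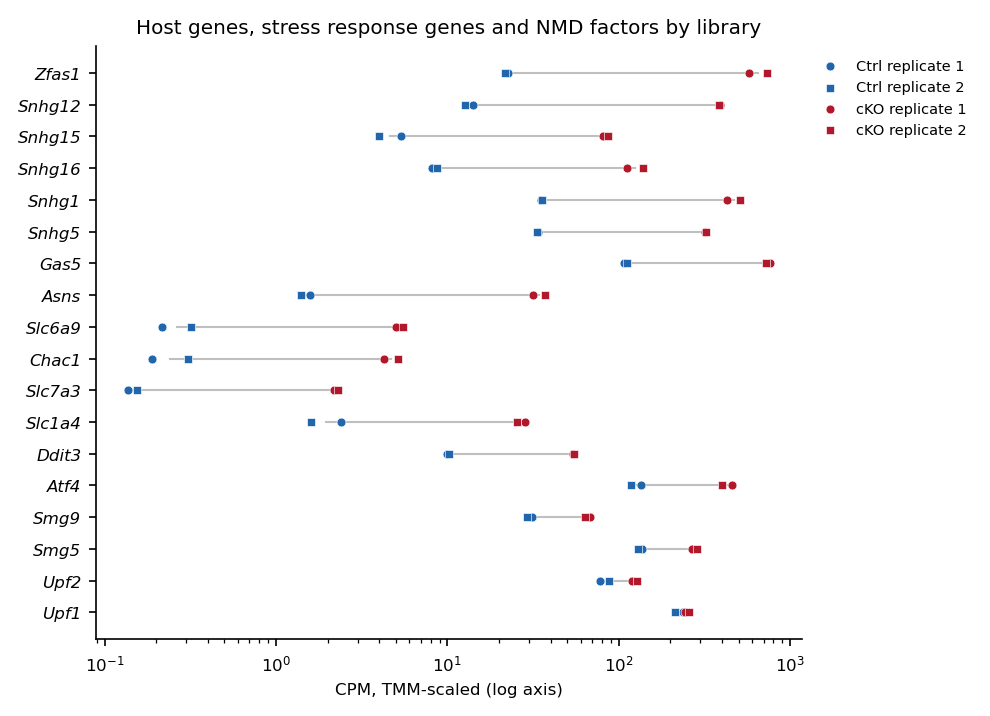
CPM (TMM-scaled, log axis) of genes that rose in cKO early LPre-B cells, with 1 point for each Ctrl library (blue) and each cKO library (red) and a grey line joining the group means. For all genes but Upf1 at the foot, the gap between genotypes is wide beside that between replicates, as for Zfas1 at 22.7 and 21.6 CPM against 573 and 732 CPM.

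Genes of the integrated stress response formed the other large block of rises. In this response, phosphorylation of the initiation factor eIF2α slows translation in general while favouring the translation of Atf4, and ATF4 with partners of the C/EBP family binds a composite element in the promoters of amino acid synthesis and transport genes. Its core, TGATGNAAN, was searched on both strands of RefSeq promoters (250 bases before to 50 after the start, build GRCm38.p6). It occurred in 1215 of 27025 promoters (4.5%). Among genes tested it was in 374 of 12472 promoters (3%), among all that rose in 55 of 1983 (2.77%) and among all that fell in 56 of 2148 (2.61%). The list below names known genes of this response, which favours a high share in it, and no test was made. Of the 36 response genes tested, 31 had a promoter in the table, and 9 of these held the element (29%). Of the 21 that rose, 18 had a promoter and 7 of these held it (38.9%). The 7 are shown since they include several of the genes that rose most. Each line gives 30 bases on the gene's strand, 5′ to 3′, with the element in capitals.
Asns, chr6:7693213-7693242, minus strand: cccagccacaTGATGAAACttcccgcacgc
Chac1, chr2:119351038-119351067, plus strand: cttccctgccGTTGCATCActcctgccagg
Slc1a4, chr11:20332699-20332728, minus strand: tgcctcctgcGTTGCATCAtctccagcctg
Vldlr, chr19:27216809-27216838, plus strand: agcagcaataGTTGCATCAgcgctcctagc
Pycr1, chr11:120643832-120643861, minus strand: gccctgtgtaTGATGCAATgcacaaggctc
Atf3, chr1:191183425-191183454, minus strand: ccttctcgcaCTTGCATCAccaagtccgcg
Trib3, chr2:152344028-152344057, minus strand: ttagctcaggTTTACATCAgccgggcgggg
In Asns and Pycr1 the element reads forward, and in the other 5 it lies on the opposite strand. Its first base was 5 bases before the start in Slc1a4, 23 before it in Asns, 103 before it in Pycr1, 111 before it in Atf3, 194 before it in Chac1, 201 before it in Vldlr, and at position 13 in Trib3. The promoters of Slc7a11 and Nupr1 held the element too, and neither gene passed the test (Log2FC -0.23 and 0.10, levels of at most 1.01 and 0.119 CPM). A match of letters is no evidence of binding. None of the 16 snoRNA host promoters in the table held the element.

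Asns, the asparagine synthetase (chromosome 6, bases 7675165 to 7693209), was at 1.57 and 1.4 CPM in Ctrl and at 31.7 and 36.9 CPM in cKO, 23-fold higher (Log2FC 4.53, SE 0.17, adj. P 3.42e-06). Chac1, which degrades glutathione, rose from 0.188 and 0.308 to 4.26 and 5.17 CPM, and the glycine transporter Slc6a9 from 0.217 and 0.32 to 5 and 5.49 CPM. The neutral amino acid transporter Slc1a4 rose from 2.38 and 1.59 to 28.3 and 25.4 CPM (Log2FC 3.75, SE 0.24, adj. P 4.76e-05). These genes were close to silent in Ctrl cells and clearly present in both cKO libraries. The transcription factors of the response, which are NMD substrates by their upstream reading frames, rose from a higher base. Atf4 was at 134 and 118 CPM in Ctrl and 461 and 403 CPM in cKO (Log2FC 1.77, SE 0.12, adj. P 5.22e-05), and Ddit3 (CHOP) at 9.94 and 10.2 CPM in Ctrl and 54 and 54.6 CPM in cKO (Log2FC 2.43, SE 0.14, adj. P 2.09e-05). Of the 36 genes, 21 were higher, 3 were lower and the median Log2FC was 0.94.

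The 3 that fell were eIF2α kinases and a C/EBP partner. Eif2ak3 (PERK), the kinase that senses stress in the endoplasmic reticulum, went from 114 and 107 CPM to 47.7 and 54.9 CPM (Log2FC -1.11, SE 0.10, adj. P 0.000134). Eif2ak1, the haem-regulated kinase, had a Log2FC of -0.29 (adj. P 0.0322) and was not past the threshold with any 1 early LPre-B library left out. Cebpg had -0.36 (adj. P 0.00917) and was not past it without cKO replicate 1. The interferon-induced kinase Eif2ak2 (PKR), which was on this list as well, was higher at 0.93.

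Aminoacyl-tRNA synthetases, the enzymes that charge tRNAs and whose genes ATF4 is known to activate, were higher or did not pass the test. Of 20 cytosolic synthetase genes, 12 were higher and none was lower, with a median Log2FC of 0.51 and 10 to 12 higher with any 1 early LPre-B library left out. Cars (cysteine) was at 46 and 45.6 CPM in Ctrl and 143 and 148 CPM in cKO (Log2FC 1.67, SE 0.11, adj. P 4.7e-05). Yars (tyrosine) rose from 70 and 57.6 to 142 and 148 CPM, Lars (leucine) from 80.3 and 79.9 to 156 and 170 CPM, and Sars (serine) from 77.1 and 63.2 to 144 and 141 CPM. The 8 that did not pass ranged from Hars at -0.25 to Wars at 0.29.

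The unfolded protein response shares Eif2ak3 with the genes above. Of 30 genes of this response, chaperones included, 8 were higher and 3 lower, with a median Log2FC of 0.07 against -0.06 over all genes. Of all genes tested, 14.5% were higher and 16.9% lower. Hyou1, a chaperone of the endoplasmic reticulum, was at 178 and 144 CPM in Ctrl and 247 and 230 CPM in cKO (Log2FC 0.57, SE 0.11, adj. P 0.00648). The number higher was 5 without Ctrl replicate 2, 2 without cKO replicate 1 and 2 without cKO replicate 2. Xbp1, which encodes the factor spliced in this response, had a Log2FC of 0.03.

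Of 18 genes of NMD factors, 9 were higher, 1 was lower and the median Log2FC was 0.31, with 7 to 9 higher when any 1 early LPre-B library was left out. Smg5, which recruits decay enzymes to phosphorylated UPF1 and whose own mRNA is an NMD substrate, was at 136 and 129 CPM in Ctrl and 267 and 288 CPM in cKO (Log2FC 1.06, SE 0.10, adj. P 0.000179). Smg9, a subunit of the kinase complex that phosphorylates UPF1, rose from 31 and 29.3 to 67.7 and 63.4 CPM (Log2FC 1.12, SE 0.10, adj. P 0.000125), and Upf2, which bridges UPF1 to the exon junction complex, from 77.4 and 88 to 120 and 127 CPM. Pnrc2, an adaptor between UPF1 and the decapping enzyme, was the member that fell, from 121 and 127 to 83.6 and 86.2 CPM. Upf3a and Upf3b had opposite signs, at -0.31 (not past the threshold) and 0.54 (higher).

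Of 35 genes of the exon junction complex and the general decay enzymes, 4 were higher and 9 were lower, with a median Log2FC of -0.14. Over all genes tested, 14.5% were higher and 16.9% lower. Dis3, the nuclease of the exosome, rose from 70.5 and 69.5 to 119 and 128 CPM, and Stau2, which binds double-stranded RNA and recruits UPF1, fell from 14.1 and 11.5 to 5.85 and 5.75 CPM (Log2FC -1.14, SE 0.15, adj. P 0.000911). The number lower was 2 without cKO replicate 1 and 5 without any other early LPre-B library.

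Among 14 transcripts known as NMD substrates, 10 were higher and 1 was lower, with a median Log2FC of 1.10. The list shares Gas5, Atf3, Atf4, Ddit3, Ern1 and Smg5 with the groups above. Gadd45b, a stress-induced activator of the MAP kinase pathway, was at 16.1 and 14.1 CPM in Ctrl and 45.7 and 44.5 CPM in cKO (Log2FC 1.58, SE 0.12, adj. P 6.89e-05). Its relative Gadd45a was the member that fell, from 9.78 and 9.82 to 6.54 and 6.09 CPM (Log2FC -0.63, SE 0.12, adj. P 0.00426). The members that did not pass were Nat9 (-0.05), Cdkn1a (0.27) and Map3k14 (0.34).

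Splicing factors that carry poison exons, whose inclusion sends the mRNA to NMD, were mixed. Of 30 genes tested, 10 were higher, 4 were lower and the median Log2FC was 0.19. Ptbp2, a splicing repressor held back outside the nervous system by a frameshifting splice choice, was at 48 and 66.9 CPM in Ctrl and 178 and 201 CPM in cKO (Log2FC 1.72, SE 0.19, adj. P 0.000338). Hnrnpdl rose from 223 and 222 to 421 and 450 CPM, Hnrnpll from 3.77 and 4.2 to 8.86 and 9.92 CPM, and Tra2b from 375 and 328 to 580 and 612 CPM. The 4 that fell were Ptbp3 (-0.57), Hnrnpa1 (-0.50), Srsf1 (-0.47) and Srsf5 (-0.39), and each lost its call without cKO replicate 1. Srsf5 lost it without any 1 of the 4 libraries, Hnrnpa1 also without Ctrl replicate 1 or cKO replicate 2, and Srsf1 also without cKO replicate 2. Gene counts do not separate the isoform with a poison exon from the productive one.

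**Figure D3:**
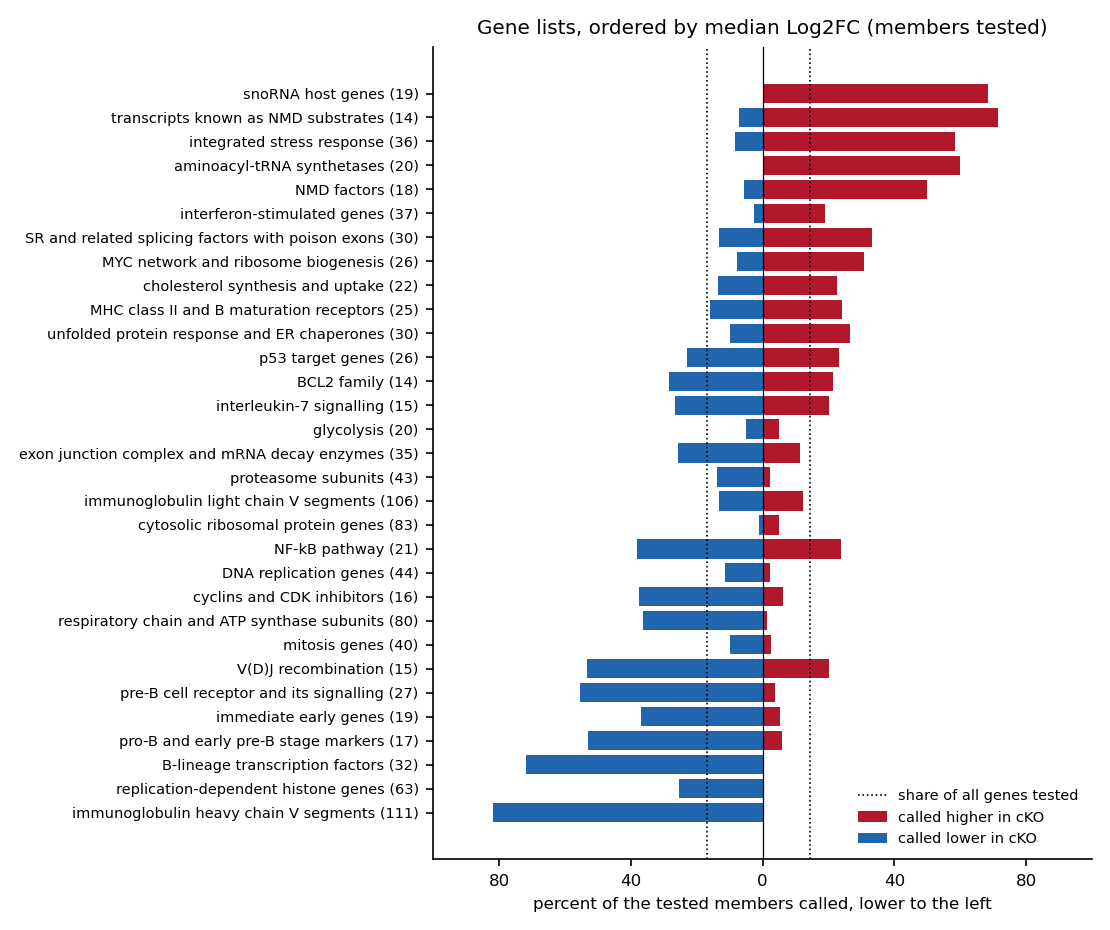
Percent of each gene list's tested members (number in brackets) called higher (red, to the right) or lower (blue, to the left) in cKO early LPre-B cells, with lists ordered by median Log2FC. Dotted lines give the shares over all genes tested, 14.5% higher and 16.9% lower. The snoRNA host genes stand at the top with a median of 2.67 and the immunoglobulin heavy chain V segments at the foot with -4.70.

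Several of the furthest rises were in genes with a few counts in Ctrl cells. Among the 12 genes with the largest Log2FC that passed the test without overlap and had at least 50 counts in each cKO library were Zfp600, Ppp1r42, Olfr164 and Gm6936, beside Zfas1, Snhg12, Snhg15, Asns, Slc6a9, Chac1, 2410006H16Rik and 1110038B12Rik. Ppp1r42, which encodes a regulatory subunit of protein phosphatase 1, was read 12 and 2 times in the Ctrl and 82 and 190 times in the cKO libraries. Olfr164, an olfactory receptor gene, rose from 5 and 20 counts to 204 and 282, and the non-coding Gm6936 had 9 and 2 against 72 and 125. Zfp600, a zinc finger gene of a cluster of close copies between which reads may be split, went from 8 and 10 counts to 77 and 483, and was past the threshold neither without cKO replicate 2 nor without either Ctrl library.

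Genes of V(D)J recombination changed in both directions. RAG1 and RAG2 cut DNA at the recombination signals, terminal transferase (Dntt) adds untemplated bases, and the end-joining factors seal the break. Dntt (chromosome 19, bases 41029275 to 41059525) was at 272 and 240 CPM in Ctrl and 26.8 and 24.8 CPM in cKO, 9.92-fold lower (Log2FC -3.31, SE 0.20, adj. P 3.79e-05). Rag1 (chromosome 2, bases 101638252 to 101649532) was at 409 and 385 CPM in Ctrl and at 44 and 74.9 CPM in cKO (Log2FC -2.74, SE 0.25, adj. P 0.000148), and its neighbour Rag2 at 89 and 85.9 CPM against 36.5 and 48.6 CPM (Log2FC -1.04, SE 0.13, adj. P 0.00068). Lig4, the ligase of end joining, fell from 119 and 130 to 64.5 and 71 CPM. By contrast, Paxx, a scaffold that stabilises Ku on DNA ends, rose from 10.9 and 9.72 to 44.9 and 48.3 CPM (Log2FC 2.18, SE 0.13, adj. P 3.79e-05). Prkdc, the kinase that Ku recruits, rose from 131 and 166 to 248 and 264 CPM, and Trp53bp1, which protects broken ends from resection, from 101 and 105 to 171 and 181 CPM. In all, 8 of 15 genes were lower and 3 higher, with a median Log2FC of -0.40. The number lower was 5 without cKO replicate 1.

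Of 32 transcription factors of the B lineage, 23 were lower and none was higher, with a median Log2FC of -0.61. Erg was at 93.7 and 88.8 CPM in Ctrl and at 32.5 CPM in both cKO libraries (Log2FC -1.49, SE 0.15, adj. P 0.000223). Foxo1, an activator of the Rag genes, fell from 231 and 234 to 114 and 120 CPM (Log2FC -1.0, SE 0.10, adj. P 0.00023). Spi1 (PU.1) went from 53.5 and 47.4 to 30.9 and 27.9 CPM, and Runx1 from 173 and 182 to 117 and 119 CPM. Factors that found the lineage had smaller values: Ebf1 had a Log2FC of -0.45 (adj. P 0.035), Ikzf1 of -0.42 (adj. P 0.0355) and Pax5 of -0.21 (adj. P 0.238), and these 3 were picked out after their values were seen. The highest member was Bcl11a at 0.58, which did not pass the test. The number lower was 15 without cKO replicate 1, and 17 or 18 without any other early LPre-B library.

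The pre-B cell receptor and its signalling chain followed. Of 27 genes, 15 were lower and 1 was higher, with a median Log2FC of -0.43. Vpreb3, a chaperone of the receptor's assembly, fell from 394 and 324 to 199 and 184 CPM (Log2FC -0.91, SE 0.12, adj. P 0.00111). Blnk, the adaptor below the receptor, fell from 377 and 401 to 207 and 244 CPM, and Pik3r1, the regulatory subunit of PI3 kinase, from 179 and 192 to 105 and 116 CPM. Malt1, of the NF-kB branch, was the member called higher (Log2FC 0.32, adj. P 0.029), and it lost the call without Ctrl replicate 1 or either cKO library. The surrogate light chain genes Vpreb1 and Igll1 had a Log2FC of -0.53 (adj. P 0.0705) and -0.37 (adj. P 0.129). The number lower was 7 without cKO replicate 1. Ighm, the constant region expressed from the prearranged allele, stood at 3718 and 3317 CPM in Ctrl and at 3871 and 3462 CPM in cKO (Log2FC 0.06, SE 0.18, adj. P 0.836), so that the groups overlapped.

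A list of markers around the pro-B to early pre-B stage moved the same way. Of 17, 9 were lower, and 1 was higher, with a median Log2FC of -0.57. The list shares Dntt, Rag1, Rag2, Erg, Sox4 and the surrogate light chain genes with the groups above. It also holds Cd2 and Il2ra, which mark the later sPre-B stage and are counted again among the maturation receptors below. Il2ra, at 18.6 to 53.6 CPM here and 477 to 532 CPM in sPre-B cells, is 1 of the 9 that were lower. Kit, the stem cell factor receptor of pro-B cells, fell from 18.7 and 15.1 to 3.84 and 2.08 CPM (Log2FC -2.51, SE 0.45, adj. P 0.00387), and Enpep, the BP-1 antigen, from 97.3 and 74.7 to 24.9 and 35.1 CPM. Flt3, the receptor of earlier progenitors, was the member called higher, from 1.06 and 1.9 to 3.15 and 2.75 CPM, and lost the call without Ctrl replicate 1, cKO replicate 1 or cKO replicate 2. How far the groups differed in their mix of cells within the gate was not tested.

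**Figure D4:**
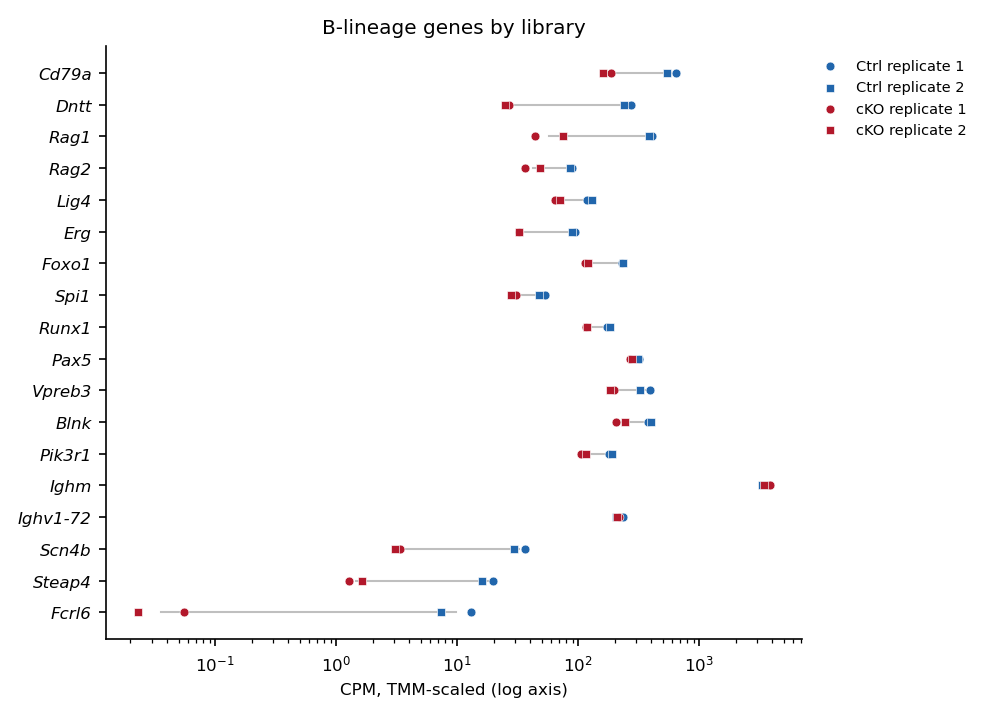
CPM (TMM-scaled, log axis) of B-lineage genes in the 2 Ctrl (blue) and 2 cKO (red) early LPre-B libraries, with a line joining the group means. Dntt and Rag1 lie well to the left in both cKO libraries, Pax5 moves little, and Ighm and Ighv1-72 overlap between genotypes.

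Most heavy chain V segments other than the prearranged one were lower. Of 111 segments tested, 91 were lower and none was higher, and the median of the fitted Log2FC was -4.70. Segments such as Ighv1-19 (390 and 218 counts in the Ctrl libraries against 0 and 0, at least 197-fold lower with the limit of 3 counts over the group) set this median, and the fitted value of such a segment depends on the prior count. Ighv1-72, the V segment of B1-8, was at 236 and 205 CPM in Ctrl and 218 and 208 CPM in cKO (Log2FC -0.05, SE 0.12, adj. P 0.773). The other segments summed to 436 and 344 CPM in Ctrl and 215 and 205 CPM in cKO. Segments share sequence, and how reads with several matches were counted is not given in the sources used here. Light chain V segments showed no such pattern, with 13 of 106 higher, 14 lower and a median Log2FC of -0.17. These were 8 and 7 with only the 4 early LPre-B libraries in the fit, 7 higher and 22 lower without cKO replicate 2, and 8 lower without cKO replicate 1. Of these, Iglv1 rose from 110 and 83 counts to 475 and 554 (Log2FC 2.24, SE 0.14, adj. P 3.79e-05).

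Leaving immunoglobulin genes aside, the named decreases with the largest size or smallest P included membrane protein and channel genes. Fcrl6, an Fc receptor-like gene (chromosome 1, bases 172595514 to 172618322), dropped from 1798 and 569 counts to 6 and 3 (13 and 7.29 CPM against 0.0551 and 0.0231 CPM, Log2FC -8.02, SE 0.45, adj. P 1.99e-05). Tmem132e, a membrane protein gene, was at 35 and 34.7 CPM in Ctrl and 1.84 and 1.06 CPM in cKO (Log2FC -4.60, SE 0.23, adj. P 1.23e-05). Steap4, a metalloreductase, fell from 19.9 and 16 to 1.27 and 1.65 CPM, 12.2-fold, and Scn4b, a sodium channel subunit, from 36.4 and 29.4 to 3.4 and 3.08 CPM, 10.2-fold. Kcnh8, a potassium channel, had 140 and 65 counts in Ctrl and none in cKO, at least 66.3-fold lower with the limit of 3 counts over the group, and Serpina3n, a protease inhibitor, had 598 and 203 counts against 0 and 1. Both Ctrl libraries stood above both cKO libraries in each of these genes, which the rules for naming them required or favoured.

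In the reported fit, few genes of DNA synthesis and mitosis were called, a smaller share than the 16.9% lower and 14.5% higher over all genes. For replication genes called lower, the share was instead above that of all genes with DESeq2, with no filter, or with only these 4 libraries. These differences in share were not tested. Of 44 DNA replication genes, 5 were lower and 1 higher, with a median Log2FC of -0.25, and among 40 mitosis genes there were 4 lower and 1 higher (median -0.38). Cdc25b, the phosphatase that opens mitosis, was the clear case, at 467 and 497 CPM in Ctrl and 141 and 161 CPM in cKO (Log2FC -1.67, SE 0.15, adj. P 0.000125). Nsl1, a kinetochore gene, moved the other way, from 59 and 60.6 to 169 and 179 CPM (Log2FC 1.54, SE 0.17, adj. P 0.000383). Mki67 had a Log2FC of -0.65 (adj. P 0.116). The other 3 mitosis genes called lower (Ccnb2, Cdc20 and Kif20a) were past the threshold in no fit with 1 early LPre-B library left out. The 5 replication genes that fell numbered 10 in DESeq2, 12 with no filter on low counts, 11 with only these 4 libraries, 0 without Ctrl replicate 1 or cKO replicate 1, 2 without Ctrl replicate 2 and 1 without cKO replicate 2.

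Replication-dependent histone genes, which are transcribed in S phase and lack a poly(A) tail, were all on the negative side. Of 63, 16 were lower and none higher, and the fitted Log2FC ran from -1.15 (H2ac8) to -0.34 (H4c2), with a median of -0.75. H1f2, a linker histone gene, was at 3297 and 3064 CPM in Ctrl and 1305 and 1595 CPM in cKO (Log2FC -1.13, SE 0.22, adj. P 0.0054). H2bc21 fell from 27.4 and 30.5 to 14.9 and 14.7 CPM. The count of 16 depends on the fit: it was 46 with no filter on low counts, 47 with only these 4 libraries in the fit, and 4, 11, 8 and 6 without Ctrl replicate 1, Ctrl replicate 2, cKO replicate 1 and cKO replicate 2. The copies are near-identical, and reads may be split between them.

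Of 16 genes of cyclins, their kinases and inhibitors, 6 were lower and 1 higher, with a median Log2FC of -0.27. Those that fell were the inhibitors Cdkn2a, Cdkn2b, Cdkn2d and Cdkn1b and the kinases Cdk6 and Cdk2. Cdkn2d and Cdkn1b were past the threshold with any 1 early LPre-B library left out. Without Ctrl replicate 1 the other 4 lost the call, Cdkn2b and Cdk6 lost it without Ctrl replicate 2, Cdkn2b, Cdk6 and Cdk2 without cKO replicate 1, and Cdkn2a and Cdkn2b without cKO replicate 2. Cdkn2d (p19) fell from 86.3 and 85.8 to 43.4 and 47 CPM and Cdkn1b (p27) from 107 and 111 to 72.1 and 77.2 CPM. Ccnd2, the D-type cyclin induced by growth signals, rose from 168 and 145 to 333 and 257 CPM (Log2FC 0.91, SE 0.23, adj. P 0.0161), a call lost without cKO replicate 1 or either Ctrl library. The number lower was 2 without Ctrl replicate 1, and 3 without cKO replicate 1.

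p53 target genes went both ways. Of 26 tested, 6 were higher and 6 lower, with a median Log2FC of 0.02. The shares over all genes tested, for this list and the BCL2 family below, were 14.5% higher and 16.9% lower. Bbc3 (PUMA), which triggers apoptosis, was at 1.79 and 1.47 CPM in Ctrl and 5.96 and 5.48 CPM in cKO (Log2FC 1.80, SE 0.16, adj. P 0.000125), and Phlda3, an inhibitor of AKT, rose from 2.5 and 1.63 to 6.84 and 5.75 CPM. Trp53inp1 fell from 329 and 356 to 110 and 157 CPM and the antiproliferative Btg2 from 174 and 188 to 65.1 and 90 CPM. The counts were 3 higher and 2 lower without cKO replicate 1 and 3 higher without cKO replicate 2. Of 14 genes of the BCL2 family, 3 were higher and 4 lower. Bcl2l1 (BCL-XL), a survival factor of pre-B cells, fell from 140 and 142 to 76.5 and 80.3 CPM (Log2FC -0.85, SE 0.10, adj. P 0.000408). Bbc3 and Bcl2l1 were past the threshold in every such fit, and the other 5 calls (Bax, Bcl2l11, Bid, Bmf and Mcl1) were each lost without at least 1 early LPre-B library. Bcl2 had a Log2FC of 0.20 (adj. P 0.362).

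Genes of cytokine and antigen receptor signals changed in both directions, as did all genes tested, with 14.5% higher and 16.9% lower. Of 15 genes of the interleukin-7 pathway, which supports the survival and division of these cells, 4 were lower and 3 higher. Socs1, a feedback inhibitor, fell from 8.77 and 8.96 to 3.63 and 4.69 CPM (Log2FC -1.09, SE 0.13, adj. P 0.00054) and the survival kinase gene Pim1 from 152 and 140 to 88.4 and 85.9 CPM, while the receptor Il7r overlapped between groups at 460 and 625 CPM in Ctrl and 443 and 513 CPM in cKO. Socs2, of the same family as Socs1, was higher, at 68.8 and 54.9 CPM in Ctrl and 87 and 89.1 CPM in cKO (Log2FC 0.51, adj. P 0.0149). Of the 7 calls, those of Cish, Crlf2, Jak1, Socs2 and Stat5b were each lost without at least 1 early LPre-B library. Of 19 immediate early genes, 7 were lower and 1 higher, with a median Log2FC of -0.50. Egr1 fell from 7.23 and 5.77 to 1.95 and 1.55 CPM and Jund from 117 and 115 to 63.4 and 56.2 CPM, and Nr4a1 rose from 3.75 and 3.36 to 12 and 8.62 CPM. Of 21 NF-kB pathway genes, 8 were lower and 5 higher. The feedback inhibitors Tnfaip3 (A20) and Nfkbia fell, Tnfaip3 from 38 and 34.7 to 15.6 and 15.8 CPM (Log2FC -1.21, SE 0.09, adj. P 6.23e-05). The NF-kB counts were 5 lower and none higher without Ctrl replicate 1, 4 and 4 without Ctrl replicate 2, 3 and 2 without cKO replicate 1, 5 and 2 without cKO replicate 2, and the number lower was 5 with only these 4 libraries in the fit.

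MHC class II genes, which B-lineage cells raise as they mature, were higher in part. Of 25 genes of class II and of B maturation receptors, 6 were higher and 4 lower, with a median Log2FC of 0.08. The shares of all genes tested were 14.5% higher and 16.9% lower. H2-DMb2, a peptide-loading chain, rose from 5.14 and 4.91 to 30.5 and 19.7 CPM (Log2FC 2.32, SE 0.30, adj. P 0.000832), and Cd74, the invariant chain, from 92 and 86.7 to 337 and 213 CPM. H2-Eb1 rose from 46.3 and 34 to 105 and 79.3 CPM. The chemokine receptor Cxcr5 fell from 13.4 and 8.59 to 2.83 and 1.79 CPM (Log2FC -2.26, SE 0.33, adj. P 0.00152), and Il2ra from 36.6 and 53.6 to 18.6 and 25.8 CPM.

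Of 37 interferon-stimulated genes, 7 were higher and 1 lower, with a median Log2FC of 0.23, beside 14.5% higher and 16.9% lower over all genes. Mx2, annotated as a transcribed pseudogene, was at 1.57 and 1.87 CPM in Ctrl and at 5.36 and 20.6 CPM in cKO (Log2FC 2.92, SE 0.72, adj. P 0.0155), and lost the call without cKO replicate 2 or either Ctrl library. Oasl1 was at 4.41 and 3.31 CPM in Ctrl and 5.55 and 13.3 CPM in cKO (adj. P 0.103), and Ifi44 at 2.34 and 2.22 CPM against 0.441 and 4.9 CPM (adj. P 0.89). Ddx60 stood at 5.11 and 5.58 CPM in Ctrl and 3.84 and 8.56 CPM in cKO (adj. P 0.734). In each of these 4 genes, cKO replicate 2 was the highest of the 4 libraries, and cKO replicate 1 was below both Ctrl libraries for Ifi44 and Ddx60. Stat2, the transcription factor of the pathway, rose evenly instead, from 44 and 47.5 to 83.5 and 89.5 CPM (Log2FC 0.92, SE 0.09, adj. P 0.00016). The number higher was 11 with no filter on low counts or with only these 4 libraries, 2 without cKO replicate 2, 11 without cKO replicate 1, 4 without Ctrl replicate 1 and 3 without Ctrl replicate 2.

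Genes of ribosome assembly and of metabolism were mixed, and over all genes tested 14.5% were higher and 16.9% lower. Ribosomal protein, proteasome and glycolysis genes were called in smaller shares than these in the reported fit. Of 26 genes of the MYC network and ribosome biogenesis, 8 were higher and 2 lower. Nop56 and Nop58, core proteins of box C/D snoRNPs, rose from 158 and 147 to 373 and 359 CPM and from 116 and 104 to 201 and 200 CPM, and Mxd4, an antagonist of MYC, fell from 38.1 and 35.5 to 11.7 and 15.5 CPM. The number higher was 13 without Ctrl replicate 1, and 4 without Ctrl replicate 2 or cKO replicate 1. Of 83 cytosolic ribosomal protein genes, 4 were higher and 1 lower. Of 80 nuclear genes of the respiratory chain and ATP synthase, 29 were lower and 1 higher, with a median Log2FC of -0.34, as for Ndufs5 at 33.4 and 26.9 CPM in Ctrl against 16.8 and 18.9 CPM in cKO. That count of 29 was 14 with only these 4 libraries in the fit, 49 without Ctrl replicate 2, 4 without Ctrl replicate 1, 2 without cKO replicate 1 and 6 without cKO replicate 2. Proteasome genes had 6 of 43 lower and 1 higher (3 lower with only these 4 libraries, 12 without Ctrl replicate 2, and 1, 0 and 1 lower without Ctrl replicate 1, cKO replicate 1 and cKO replicate 2), and glycolysis genes had 1 of 20 lower and 1 higher. Of 22 genes of cholesterol synthesis, 5 were higher and 3 lower, led by Lss at 8.97 and 6.68 CPM against 20.4 and 19.2 CPM. The number higher was 2, 1 and 3 without Ctrl replicate 2, cKO replicate 1 and cKO replicate 2.

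Markers of other cells were mostly low, and some moved with genotype. The 16 myeloid markers summed to 125 and 154 CPM in Ctrl and to 63.8 and 67.2 CPM in cKO, with Itgam, also carried by some B cells, the largest member (87.1 and 97.4 against 30.4 and 41.2 CPM) and Lyz2 at 11.7 and 18.1 against 7.12 and 4.25 CPM. These 2 were the only markers of that list called, both lower. The 10 erythroid markers summed to 21.9 and 26.9 CPM in Ctrl and 17.8 and 11.5 CPM in cKO, 2 of them lower (Car1 and Hbb-bs). T and NK cell markers summed to 59 to 80.7 CPM in Ctrl and 74.5 to 76.5 CPM in cKO, with Gzma at 0 counts in all 4 libraries and Cd3e between 0.393 and 0.808 CPM. Of these, Cd28 was higher and Klrb1c and Tcf7 were lower. Plasmacytoid dendritic cell markers summed to 11 and 19.3 CPM in Ctrl and 23.5 and 23.3 CPM in cKO, with the defining Siglech at or below 0.231 CPM. Of that list, Cox6a2, also a respiratory chain gene, and Pacsin1 were higher, and Pacsin1 lost the call with any 1 early LPre-B library left out. Stem and progenitor markers summed to 28.8 to 31 CPM and 19.3 to 26.3 CPM, with Kit lower, and with Flt3 and the homeobox gene Hoxa9 (1.85 and 2.19 CPM in Ctrl, 9.84 and 6.92 CPM in cKO) higher. Plasma cell and mature B markers summed to 211 to 225 CPM and 197 to 202 CPM, with Sdc1 lower (85.9 and 73 against 40.5 and 45.8 CPM), and stromal and megakaryocyte markers to 3.86 to 11.8 CPM and 2.87 to 27.5 CPM, the highest in cKO replicate 1. The calls of Car1, Cd28, Flt3, Lyz2, Sdc1 and Tcf7 were each lost without at least 1 early LPre-B library. The part of other cells in the results above was not tested.

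Genes near Upf1 and Cd79a had medians close to that of all genes, and those near Ighm were mostly lower. Within 5 Mb of Upf1, 21 of 138 genes tested were higher and 21 lower, with a median Log2FC of -0.01. Within 5 Mb of Cd79a, 17 of 151 were higher and 26 lower, with a median of -0.07. Within 5 Mb of Ighm, 14 of 217 genes were higher and 113 lower. Without immunoglobulin heavy chain genes, 10 of 86 were higher and 20 lower there, with a median of -0.14.

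The effect of genotype in early LPre-B cells was compared with that in sPre-B cells by an interaction term in the same fit. Ctrl replicate 2 was male at both stages by the summed level of 5 sex-linked genes (257 and 402 CPM against 3123 to 3757 CPM in the other libraries), and whether libraries of one number came from one mouse is not stated, while the fit takes all 8 as independent. Of the 2564 genes that were higher in early LPre-B cells, 1762 were also higher in sPre-B cells, which is 68.7% of the first set and 50.3% of the 3505 genes higher in sPre-B cells. Of the 2983 that were lower, 1536 were also lower in sPre-B cells (51.5% and 58.4% of the 2629 there). The effect itself differed for fewer genes: it was more positive in early LPre-B cells for 283 genes (1.6%) and more negative for 467 (2.64%). Without cKO replicate 1 these counts were 42 and 84, without cKO replicate 2 they were 80 and 168, without Ctrl replicate 2 they were 117 and 125, and without Ctrl replicate 1 the more negative ones were 203. Among the genes called in early LPre-B cells, 206 of those that rose and 232 of those that fell passed the interaction test. The effect was larger in early LPre-B cells for 136 and 195 of them, and smaller or opposite for 70 and 37. Since these genes were taken by their call in early LPre-B cells, a larger effect there is favoured by the choice.

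The snoRNA hosts and the recombination genes were among those with a stage difference. For Zfas1 the rise was 4.88 in early LPre-B and 3.38 in sPre-B cells, a difference of 1.49 (adj. P 0.00697), and 7 of the 19 hosts had a larger rise and none a smaller one. Dntt fell by 3.31 in early LPre-B and by 0.72 in sPre-B cells (adj. P of the difference 0.00433), and Rag1 fell by 2.74 and by 1.06 (adj. P 0.0315). Steap4 fell by 3.61 in early LPre-B and by 0.82 in sPre-B cells (adj. P 0.00181). For the integrated stress response, where Asns rose by 4.53 and 5.03, 1 of 36 genes differed towards a larger and 4 towards a smaller value in early LPre-B cells. Tnfaip3 had opposite signs, at -1.21 and 0.52 (adj. P 0.00102), and so had Iglv1 at 2.24 and -1.17 (adj. P 0.000401) and Slc15a3, a lysosomal transporter, at 0.89 and -1.73 (adj. P 0.00068). Gadd45b rose in early LPre-B cells and had -0.33 in sPre-B cells (adj. P 0.0027), while Ccnd2 rose by 0.91 and 3.67 (adj. P 0.00612). Of 44 DNA replication genes, 5 were lower and 1 higher in early LPre-B cells, 20 were higher and 2 lower in sPre-B cells, and the difference itself passed for 4. For mitosis genes, 1 of 40 differed.

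**Figure D5:**
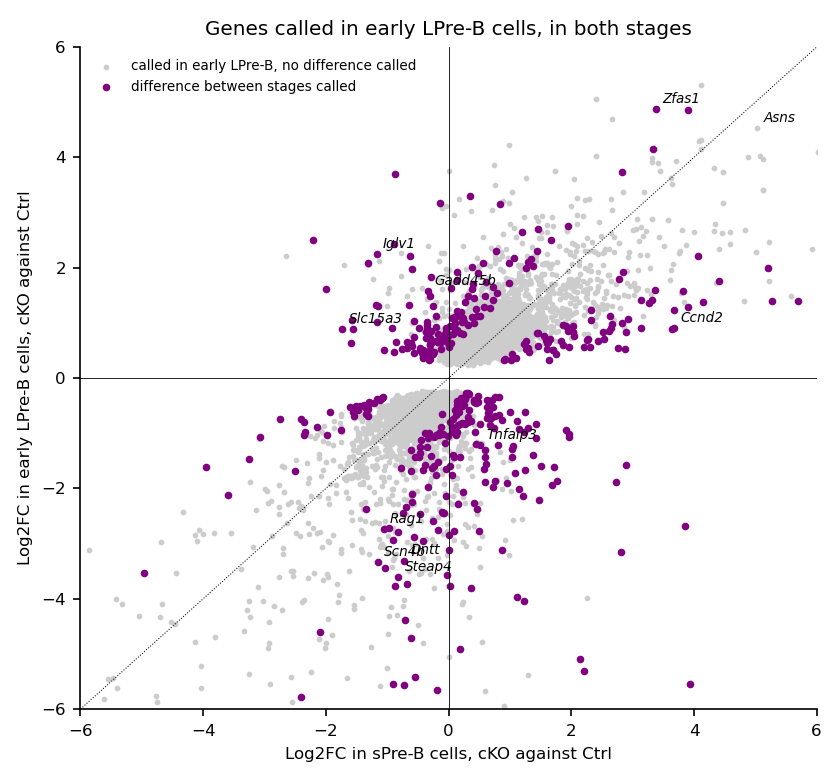
Log2FC (cKO against Ctrl) of the 5547 genes called in early LPre-B cells, in sPre-B cells (x axis) and in early LPre-B cells (y axis), with genes whose effect differed between stages coloured. The axes end at 6 on either side, and 94 genes beyond them, 57 of which are immunoglobulin segments, are not drawn. Zfas1 stands above the diagonal, and Dntt and Steap4 stand below it.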

How the data were processed

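RNA was extracted from sorted early LPre-B and sPre-B cells, depleted of rRNA and sequenced from a directional library. Per the labels and the study's methods, the authors used Trim Galore for trimming, HISAT2 in paired, unstranded mode for alignment on mm10, and featureCounts to count reads per gene. Versions are not given in the sources used here. The deposited values are raw counts for 27179 Entrez genes in 8 libraries, and 0 other columns were left out. Symbols came from RefSeq (25275 genes) and GENCODE (17), and 1887 genes had none.

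All 8 libraries, 2 in each of 4 groups, were fitted together with 1 mean per group in edgeR 4.0.16 (R 4.3.3) with TMM factors (0.862 to 1.09), filterByExpr and the quasi-likelihood F test. A gene was called at a Benjamini-Hochberg adjusted p under 0.05. CPM of single genes were scaled to the counts of the genes tested. Sums over lists and the defining markers of the gate were scaled to all counts. The 2 scales differ slightly, so a single gene can stand just above a sum that holds it. The common biological coefficient of variation was 0.174. The script was tested on simulated counts for cKO against Ctrl early LPre-B cells (17443 genes): it recovered 61 of 100 genes changed by a Log2FC of 1 and 81 of 100 changed by 2, with 15 unchanged genes called. The study's methods call its plotted data points independent biological replicates, and the Ctrl libraries differ in sex. The labels themselves do not tie libraries to mice, and p-values measure the spread between these samples. Values are gene totals from 83644947 counts or more, and intervals and limits cover counting error only.

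The comparison and the gene lists were chosen with earlier results of these data known. Named genes are Upf1 and Cd79a, the 12 largest changes each way (no overlap, and no fewer than 50 counts in either library of the group with more), the 8 smallest p each way, up to 4 per list and direction, 8 genes that the study names, and the 6 smallest interaction p. Any other gene named was chosen after its values were seen, list members given only by a Log2FC included. Of the list members, 18 were found under an older symbol, and the 15 mitochondrially encoded genes were not tested. Alternatives were DESeq2 1.42.0, median-ratio factors, no filter, only the 4 early LPre-B libraries, no immunoglobulin genes, the replicate number as a block, and each early LPre-B library left out, where the lone sample of a group is assumed to vary like the other groups. Same-numbered early LPre-B libraries deviated from their group means with a correlation of 0.123 over 2 pairs, and the labels tie the numbers to nothing shared.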

Additional observations from a re-analysis of the deposited data

Results flagged for a closer look

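Of the 212 genes under the naming rule, 41 had an effect of cKO in early LPre-B cells that differed from the effect in sPre-B cells by the interaction term of the fit (edgeR's quasi-likelihood test, adj. P under 0.05). Each value below is the Log2FC in early LPre-B cells minus that in sPre-B cells. With 2 libraries per group, libraries were not tested for standing apart from their group.

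The snoRNA host and related non-coding transcripts rose further in early LPre-B cells: Zfas1 by 1.49, Snhg12 by 0.96, Snhg1 by 0.91, Gas5 by 0.81 and 2410006H16Rik by 0.80. The same direction held for the NMD factor Smg9 (0.99), the snoRNP protein Nop56 (0.81), the end-joining factor Paxx (1.10), Gadd45b (1.91) and the cytochrome oxidase subunit Cox6a2 (1.43).

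Genes with a further decrease in early LPre-B cells were Dntt (-2.59), Rag1 (-1.68), Rag2 (-0.89), Foxo1 (-0.62), Steap4 (-2.80), Scn4b (-2.19), Tmem132e (-2.50), Mxd4 (-0.96) and Itgam (-0.90). For Klrb1c (-2.43), H2bc21 (-1.05), H2ac21 (-1.41), Pnrc2 (-0.69), Cebpg (-0.60), Cxcr5 (-2.68) and Tnfaip3 (-1.73), a negative Log2FC in early LPre-B cells stood beside a positive one in sPre-B cells. Slc15a3 (2.62), Emid1 (1.54) and the glycolytic gene Aldoa (1.02) had the reverse signs.

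Genes that rose less in early LPre-B than in sPre-B cells were Ccnd2 (-2.76), Traf1 (-2.45), the p53 targets Phlda3 (-1.77) and Bbc3 (-0.98), and the exosome nuclease Dis3 (-0.63).

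The light chain V segments Iglv1 (3.42), Iglv2 (3.32) and Igkv4-92 (1.80) were more positive in early LPre-B cells. For Igkv16-104 (-6.31), Igkv8-24 (-4.87), Serpina3n (-10.07) and Ighv1-26 (5.87), 1 of the groups was close to 0 counts, so that the fitted value depends on the prior count and gives no size.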

How the results depend on the processing

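The number of genes higher and lower in cKO early LPre-B cells was 2777 and 3214 with DESeq2 (2512 and 2900 of them shared), 2609 and 2926 with median-ratio factors, 2698 and 3052 with no filter on low counts, 2950 and 2311 with only the 4 early LPre-B libraries, and 2542 and 2940 without immunoglobulin genes. No gene called in the reported fit was called in the opposite direction under any alternative. Leaving out 1 early LPre-B library gave 1634 to 2273 higher and 1289 to 2042 lower, and at a Log2FC of 2 or more 156 to 209 and 277 to 319. The numbers with a stage difference were the least stable, at 721 more positive and 1037 more negative with DESeq2, 497 and 1078 with no filter, and 42 to 213 and 84 to 203 with 1 library left out. The cause was not tested. With the replicate number as a block, 2785 were higher and 3261 lower (2534 and 2931 shared), and 354 and 598 had a stage difference. The labels do not say that the numbers mark anything shared, and 2 pairs cannot show it, though replicate 2 of Ctrl was male at both stages. Of 208 named genes that were called, 127 were past the threshold under every alternative and 191 under every one that kept all early LPre-B libraries. Car1 lost its call under the block and Tram1 with median-ratio factors. With 2 libraries per group, precision rests on a spread shared across genes and groups, and counts near 0 limit the size of the largest decreases.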

Other observations

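Genes outside the lists and the naming rule were picked after their values were seen, and are given as values. Among these, Eya2, a phosphatase and coactivator of development, was at 7.57 and 4.9 CPM in Ctrl and at 0.0827 and 0.0385 CPM in cKO (Log2FC -6.69, SE 0.48, adj. P 6.23e-05 in edgeR), and had a Log2FC of -0.15 in sPre-B cells (adj. P of the difference 0.00344). The homeobox gene Dlx1 fell from 5.12 and 3.01 to 0.0276 and 0.0539 CPM, and the protocadherin Pcdh9 from 15.2 and 7.52 to 0.266 and 0.185 CPM. Smtnl2 fell from 61.5 and 36.8 to 1.19 and 1.43 CPM, and the calcium channel gene Cacna1e from 71.7 and 57.7 to 6.28 and 12.7 CPM. Both cKO libraries lay below both Ctrl libraries in each.

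Other genes rose from a level already present in Ctrl cells. Erdr1 went from 229 and 155 to 1449 and 1155 CPM (Log2FC 2.76, SE 0.22, adj. P 8.85e-05), and Mid1, a ubiquitin ligase gene of the X chromosome, from 57.5 and 14.2 to 332 and 352 CPM, with the male library the lower of the Ctrl pair. Both genes lie at the pseudoautosomal boundary of the sex chromosomes. The non-coding Pvt1, beside Myc, rose from 1.99 and 2.46 to 17.5 and 14.7 CPM. The switched constant region Ighg2b rose from 4.54 and 2.74 to 46.5 and 24.6 CPM (Log2FC 3.27, SE 0.41, adj. P 0.000701).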
